A study of Mus musculus with 34 samples.

Results

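The 7 genes described here encode or control the MHC class II pathway: the chains of the I-A molecule *H2-Aa* and *H2-Ab1*, the I-E beta chain *H2-Eb1*, the invariant chain *Cd74*, the transactivator *Ciita*, and the chains of the peptide exchange factor H2-DM, *H2-DMa* and *H2-DMb1*. They were taken by name from tables of 23509 genes, and all 7 passed the filter on low counts, beside 15644 genes tested in all. Polyadenylated RNA of whole kidney was sequenced in 34 mice on the C57BL6 background at postnatal day 28 (P28). In *Pkd2*-KO mice, Cre under the *Pkhd1* promoter, which is active in kidney tubules, removes floxed *Pkd2*. These mice were injected under the skin at P10, at P11, at P12 and again at P19, either with PBS (n = 11) or with RGLS4326 at 20 mg per kg (n = 11), an oligonucleotide that pairs with the seed of the microRNA miR-17. Untreated wildtype mice (UNT, n = 12) received no injection, so PBS vs UNT combines genotype and injection. No mice given a control oligonucleotide were among these 34, so RGLS4326 vs PBS combines pairing with miR-17 and receipt of an oligonucleotide. Each mouse gave 1 library.

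MHC class II molecules carry peptides from endocytosed proteins to the cell surface, where CD4+ T cells read them. The invariant chain occupies the groove of a new molecule and directs it to the endosome, proteases trim the chain to a short fragment, and H2-DM exchanges that fragment for antigenic peptides. Constitutive expression is mostly a property of dendritic cells, B cells and macrophages, while many other cells, tubule epithelium included, can express the genes after interferon gamma, and *Ciita* is the switch in both cases. In C57BL/6 mice the I-E alpha gene *H2-Ea* is not functional, so the I-E beta chain has no partner chain.

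*Ciita* does not bind DNA itself but acts through factors that sit on an X box and a Y box ahead of class II genes, at a nearly fixed spacing. The letters GNAAC (the core of an X box) followed by TGATTGG (a Y box) with 20 to 45 bases between their starts were searched on both strands of RefSeq windows from 250 bases before to 50 after the gene start (GRCm38.p6). The letters and the spacing were chosen after these windows had been seen. The pair was found in 235 of 32851 windows (0.715%), and TGATTGG alone in 2568 (7.82%), a count that includes the windows with the pair. The stretches ahead of *H2-Aa* (chr17:34287863-34287908, minus strand) and *H2-Eb1* (chr17:34305772-34305816, plus strand), which share this layout, are shown in the sense of the gene, with both motifs in capitals:
H2-Aa: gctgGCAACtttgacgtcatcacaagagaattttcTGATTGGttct
H2-Eb1: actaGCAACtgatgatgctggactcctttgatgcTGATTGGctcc
The starts of the motifs were 31 bases apart in *H2-Aa* and 30 bases apart in *H2-Eb1*. In *H2-DMb1* the pair was found with 31 bases between the starts, with the X box 94 bases ahead of the RefSeq start. Both windows of *H2-DMa* lacked these letters. Among the class II genes outside the 7, *H2-Oa* (31 bases), *H2-Eb2* (30 bases) and *H2-Ob* (28 bases) had the pair, and *H2-DMb2* had TGATTGG alone. The match describes letters only and shows no binding.

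RGLS4326 acts on miR-17, whose mature sequence (mmu-miR-17-5p, from RefSeq) is shown with the seed, bases 2 to 8, in capitals because it decides which transcripts can pair with it:
mmu-miR-17-5p: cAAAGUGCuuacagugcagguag
The complement of the seed, GCACTTT, or CACTTTA was sought in 3′UTRs, with the longest one in GENCODE M21 taken for every gene. None of the 7 genes had a match, in 3′UTRs of 291 bases (*H2-DMb1*) to 2676 bases (*Ciita*). Of 14195 tested genes with a 3′UTR, 3010 (21.2%) had one, with a median 3′UTR of 1149 bases.

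The members other than *Ciita* and *Cd74* lie close together in the H2 region of chromosome 17 (GRCm38): *H2-DMa* at 34119541 to 34139101, *H2-DMb1* at 34153072 to 34160230, *H2-Ab1* at 34257689 to 34269419, *H2-Aa* at 34282744 to 34287823 on the minus strand and *H2-Eb1* at 34305867 to 34316674. *Ciita* lies on chromosome 16 (10480059 to 10528418) and *Cd74* on chromosome 18 (60803848 to 60812652). The exons of their coding transcripts overlap those of another gene only in *Ciita*, by 111 bases with *Dexi* on the opposite strand, and in *Cd74*, by 12 bases with *Mir5107*. *H2-DMb1* has a near-identical neighbour, *H2-DMb2*, and counts of uniquely mapped reads can lose or misplace reads of both, so their levels are uncertain.

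The libraries held 17603122 to 54981992 reads in genes, and no pair of libraries was identical. *Pkd2*, the deleted gene, fell in PBS-treated kidneys by 0.78 on the log2 scale (SE 0.092, adjusted p = 1.40e-09 in the quasi-likelihood test of edgeR). Its levels were 98.0 to 214 CPM (counts scaled to library size by TMM) in PBS and 220 to 338 CPM in UNT libraries, so deletion in tubules left transcript in whole kidney. In RGLS4326 libraries it was at 170 to 237 CPM, overlapping UNT, with a log2 fold change of -0.39 against UNT (SE 0.091, adjusted p = 0.000267) and of 0.39 against PBS (SE 0.093, adjusted p = 0.00439). The labels spell the genotype with the letters of another gene, *Pdk2*, which was also lower (log2 fold change -1.17, SE 0.11, adjusted p = 5.31e-12). The markers of kidney epithelium were abundant in every library, with a summed level of 5168 to 21300 CPM over 8 genes. Libraries fell into 3 blocks by the numbering in the names of the deposited tables, each with 3 or 4 mice of every group, and what the blocks stand for is not given in the sources used here.

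All 7 class II genes were higher in PBS-treated *Pkd2*-KO kidneys than in UNT kidneys, 3.09-fold (*H2-DMb1*) to 15.1-fold (*Cd74*), and every PBS mouse lay above every UNT mouse for each of them. The background was large: of 15644 genes tested, 43.1% were called higher and 39.0% lower at an adjusted p under 0.05, and for 22.7% all PBS mice lay above all UNT mice. The median log2 fold change of the 7 genes was 3.33, beside 0.038 over all genes tested. The share of reads outside genes was higher in every UNT than in every PBS library. With it as a covariate the 7 values were 1.22 (*H2-DMb1*) to 3.23 (*Cd74*), all called. By size of the log2 fold change *Cd74* ranked 269, *H2-Eb1* 400, *H2-Ab1* 440 and *H2-Aa* 461 from the top among all genes, and *H2-DMb1* ranked 1678.

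Among the chains that present peptide, *H2-Aa* ranged from 30.1 to 97.9 CPM in UNT kidneys (median 44.1) and from 252 to 918 CPM in PBS-treated kidneys (median 437). Its log2 fold change was 3.33 (SE 0.22, adjusted p = 2.91e-16). *H2-Ab1*, its partner chain, ranged from 22.2 to 84.4 CPM in UNT (median 32.8) and from 221 to 702 CPM in PBS (median 356; log2 fold change 3.38, SE 0.22, adjusted p = 3.98e-16). Both chains thus moved by nearly the same amount. *H2-Eb1*, which has no partner in this strain, ranged from 26.6 to 84.3 CPM in UNT (median 34) and from 223 to 885 CPM in PBS (median 367; log2 fold change 3.47, SE 0.23, adjusted p = 7.32e-16). For all 3 chains the highest UNT mouse was UNT 9, and it stood at less than the lowest PBS mouse, PBS 8.

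*Cd74*, the invariant chain, had the largest difference of the 7. It ranged from 61.0 to 174 CPM in UNT kidneys (median 79.5) and from 680 to 2467 CPM in PBS-treated kidneys (median 1122; log2 fold change 3.92, SE 0.22, adjusted p = 8.07e-18). *Ciita*, the transactivator, was the least abundant of the 7 per length and varied least among PBS mice. It ranged from 1.27 to 3.65 CPM in UNT (50 to 153 counts per library; median 2.30 CPM) and from 16.3 to 25.4 CPM in PBS (median 19.1; log2 fold change 3.0, SE 0.14, adjusted p = 5.79e-20). Its coefficient of variation among PBS mice was 15.7%, beside 39.2% to 47.0% for the I-A and I-E chains and *Cd74*.

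The chains of H2-DM, which act together as a dimer, differed in size of change. *H2-DMa* ranged from 4.04 to 11.0 CPM in UNT kidneys (median 5.94) and from 31.2 to 76.2 CPM in PBS-treated kidneys (median 42.8; log2 fold change 2.85, SE 0.16, adjusted p = 3.54e-18). *H2-DMb1* ranged from 10.9 to 17.9 CPM in UNT (median 13.7) and from 32.7 to 67.0 CPM in PBS (median 36.5; log2 fold change 1.63, SE 0.12, adjusted p = 2.64e-15). Both chains rose without overlap between the groups, and the beta chain rose less.

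**Figure D1:**
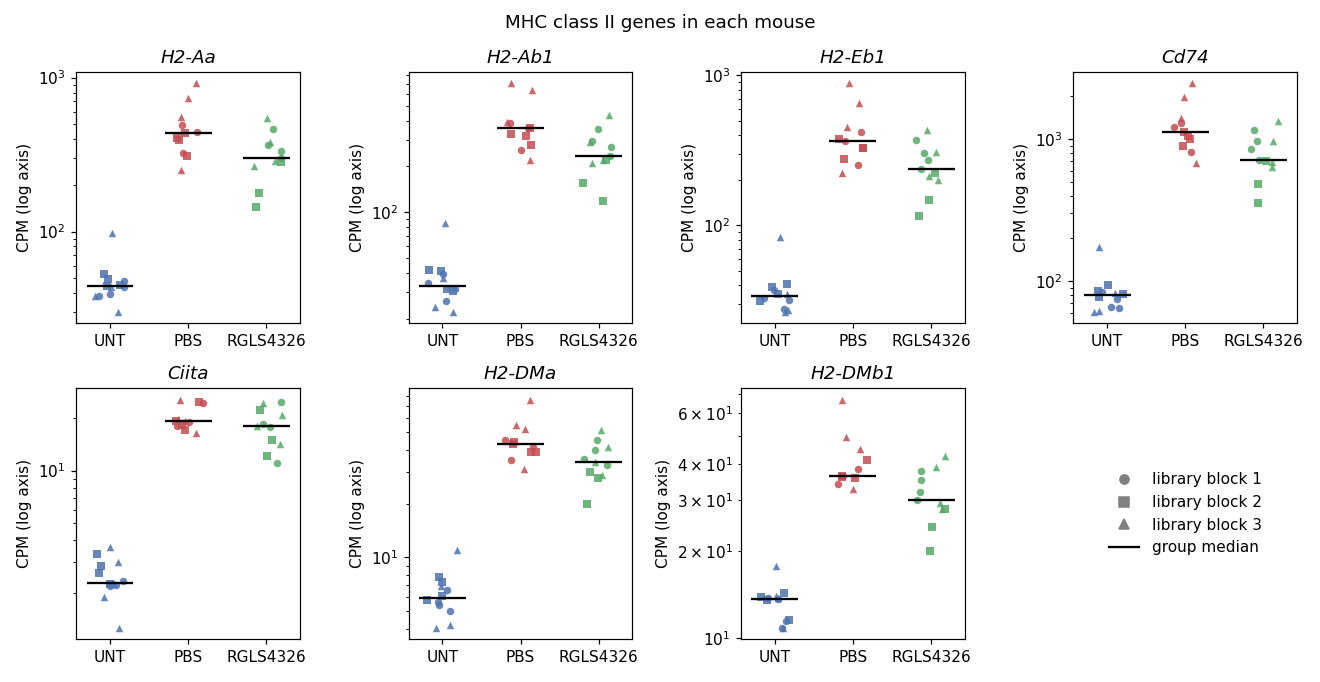
Level of each of the 7 genes in every mouse (CPM, TMM scaled, on a log axis) by group, UNT (n = 12), PBS (n = 11) and RGLS4326 (n = 11), with the marker shape giving the library block and the bar the group median. PBS and UNT mice do not overlap for any gene, whereas RGLS4326 and PBS mice overlap for all 7; the highest *Cd74* level, 2467 CPM, is a block 3 PBS mouse.

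Per kilobase of exon in coding transcripts, the scale on which genes can be compared, the order in PBS-treated kidneys was *Cd74* (median 792 CPM per kb), *H2-Aa* (387), *H2-Ab1* (294), *H2-Eb1* (204), *H2-DMb1* (26), *H2-DMa* (16.0) and *Ciita* (2.31). These are levels, not differences. Over mice, the ranges of neighbours in this order overlapped, as in *H2-Aa* (224 to 814 CPM per kb) and *H2-Ab1* (183 to 579 CPM per kb). Within each PBS mouse, however, *H2-Aa* stood above *H2-Ab1* on this scale. The ranges did not overlap between *H2-Eb1* (124 to 493) and *H2-DMb1* (23.3 to 47.7) or between *H2-DMa* (11.7 to 28.6) and *Ciita* (1.97 to 3.07). In UNT kidneys the order of the medians was the same, from 56.1 CPM per kb for *Cd74* to 0.278 for *Ciita*, and so it was with RGLS4326 (500 to 2.16 CPM per kb). With the exons of all annotated transcripts as the length, *H2-Eb1* (median 189 CPM per kb in PBS) stood above *H2-Ab1* (139) and *H2-Aa* (115), so the order of these 3 chains depends on which transcripts are counted.

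Pairs of chains were compared within each mouse as the difference of their log2(CPM + 1), tested by two-sided permutation with 100000 resamples and adjusted over 8 tests. This comparison was added after the levels had been seen, and since gene length enters each difference as a constant, only its shift between groups can be read. *H2-Aa* exceeded *H2-Ab1* by 0.39 ± 0.16 (SD, n = 12) in UNT, by 0.31 ± 0.098 (n = 11) in PBS and by 0.33 ± 0.062 (n = 11) in RGLS4326 mice, and neither contrast passed the permutation test (adjusted p = 0.271 for PBS vs UNT and 0.642 for RGLS4326 vs PBS). *Cd74* exceeded *H2-Ab1* by 1.20 ± 0.14 in UNT and by 1.71 ± 0.078 in PBS kidneys, and all PBS mice (1.61 to 1.86) lay above all UNT mice (1.02 to 1.43). That shift of 0.51 had an adjusted permutation p of 0.00016. The ratio of invariant chain to I-A beta chain counts was thus higher in diseased kidneys, and did not differ beyond the spread between RGLS4326 and PBS (difference -0.065, adjusted permutation p = 0.122).

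*H2-DMb1* minus *H2-DMa* turned from 1.0 ± 0.24 (SD, n = 12) in UNT to -0.13 ± 0.10 (n = 11) in PBS kidneys, with no overlap between the groups (0.66 to 1.54 in UNT, -0.30 to 0.069 in PBS; adjusted permutation p = 0.00016). In RGLS4326 mice it was -0.14 ± 0.12 (n = 11), a difference of -0.0081 from PBS (adjusted permutation p = 0.865). The balance of the H2-DM chains thus differed between UNT mice and both *Pkd2*-KO groups, although the reads of *H2-DMb1* carry the uncertainty of its neighbour. *H2-DMb2*, that neighbour, ranged from 0.16 to 0.81 CPM in UNT and from 7.83 to 13.4 CPM in PBS, a log2 fold change of 4.72 (edgeR).

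**Figure D2:**
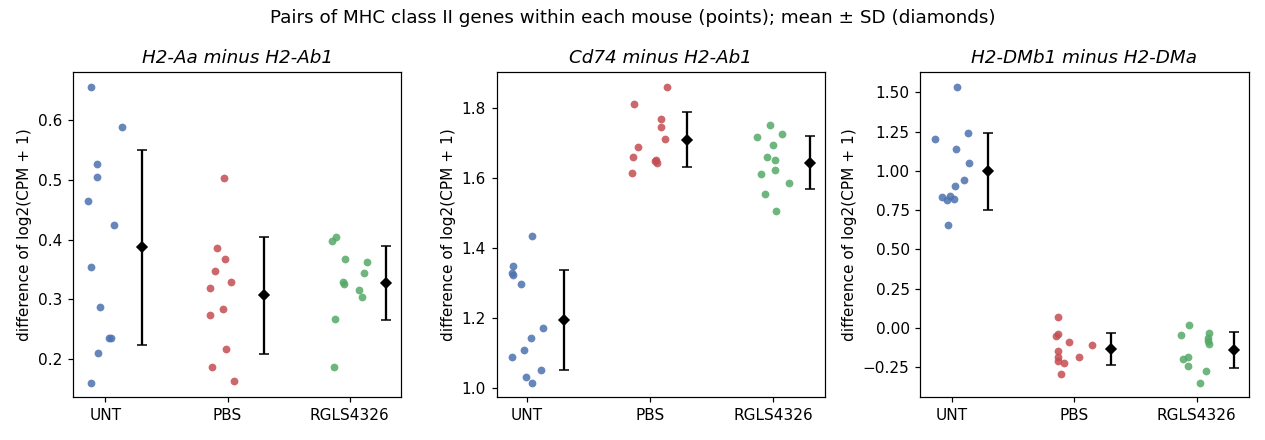
Difference of log2(CPM + 1) between 2 genes within each mouse (points) with the group mean ± SD (diamonds), for *H2-Aa* minus *H2-Ab1*, *Cd74* minus *H2-Ab1* and *H2-DMb1* minus *H2-DMa*. The groups overlap in the first panel, while in the third all UNT mice (0.66 to 1.54) lie above all PBS mice (-0.30 to 0.069).

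The other genes of the pathway were read from lists of known members. Of the 5 further class II chains in the tables, 4 passed the filter and 3 were higher in PBS than in UNT: *H2-DMb2*, *H2-Eb2* (log2 fold change 2.52) and *H2-Oa* (2.13), the alpha chain of the H2-DM inhibitor H2-O. *H2-Ob*, the beta chain of H2-O, was at 0.87 to 2.05 CPM in UNT and 0.80 to 2.31 CPM in PBS (log2 fold change 0.19, adjusted p = 0.259 in edgeR). The median log2 fold change over the 4 was 2.33. The pseudogene *H2-Ea-ps* did not exceed 0.034 CPM in any library.

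The factors that bind the X and Y boxes were not raised as a group. Of the 7 genes of this list, 2 were higher in PBS (*Nfya*, log2 fold change 0.79, and *Rfx5*, 0.16), 3 were lower (*Nfyc*, -0.77, *Creb1*, -0.28, and *Rfxank*, -0.24) and *Rfxap* and *Nfyb* did not pass the test, with a median log2 fold change of -0.026. In the interferon gamma axis, 7 of 8 tested genes were higher (median log2 fold change 1.54), among them the receptor chains *Ifngr1* (1.73) and *Ifngr2* (1.96), the transcription factor *Irf1* (1.53), which acts on a *Ciita* promoter, and the feedback inhibitor *Socs1* (1.92). *Ifng* itself was too low to be tested, with a median of 0 CPM in UNT and 0.056 CPM in PBS.

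Of 9 tested genes that process antigen for class II, 6 were higher in PBS kidneys, 1 was lower and 2 did not pass (median log2 fold change 0.66). *Ctss*, the protease that trims the invariant chain in antigen presenting cells, was at 7.56 to 17.8 CPM in UNT and 124 to 411 CPM in PBS (log2 fold change 4.79, more than that of any of the 7 class II genes). *Ifi30*, a lysosomal reductase, rose by 1.15, and *March1*, a ubiquitin ligase that removes class II from the surface, by 1.58. *Ctsl*, which trims the invariant chain in thymic epithelium, rose by 0.55. All 6 genes of the costimulation list were higher (median 2.24), among them *Cd86* (3.02) and *Cd80* (3.29), the ligands that T cells read beside class II. The list also holds the inhibitory ligands *Cd274* (0.28) and *Pdcd1lg2* (3.60, at most 0.59 CPM in PBS).

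Markers of the cells that carry class II moved with these genes, and in whole kidney more such cells cannot be told apart from more RNA per cell. All 10 macrophage markers were higher in PBS kidneys (median log2 fold change 4.38), with a summed level of 107 to 188 CPM in UNT, 793 to 2017 CPM in PBS and 723 to 1464 CPM in RGLS4326 kidneys, and none was at 0 throughout a group. Of 9 dendritic cell markers 8 were higher (median 1.94), and their sum was 12.3 to 18.8 CPM, 39.2 to 87.9 CPM and 33.6 to 59.8 CPM in the same order. Among the B cell markers *Cd79b* was higher and *Cr2* was lower, and the summed level of the 6 in the tables stayed low, from 3.0 to 6.55 CPM in UNT, 5.41 to 12.2 CPM in PBS and 4.10 to 7.33 CPM in RGLS4326 kidneys. *Pax5* and *Ms4a1*, which define B cells, had medians of at most 0.065 and 0.321 CPM in any group.

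Of 6 T cell markers 5 were higher in PBS (median log2 fold change 2.81), with sums of 3.49 to 6.28 CPM in UNT, 11.0 to 36.2 CPM in PBS and 7.79 to 16.6 CPM in RGLS4326 kidneys. All 4 tested neutrophil markers were higher (median 2.53), and the 5 in the tables summed to 1.63 to 7.58 CPM, 7.87 to 40.6 CPM and 10.8 to 21.2 CPM. All 5 pan-leukocyte markers were higher (median 3.33), with sums of 25.9 to 53.2 CPM, 211 to 472 CPM and 179 to 365 CPM. Of the 8 kidney epithelial markers 6 were lower and 2 higher (median -1.82). The part of these cells in the class II levels was not tested beyond the comparison that follows.

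To set the class II genes beside the leukocyte content, the log2(CPM + 1) of *Ptprc* (CD45), which all nucleated blood cells carry, was subtracted in each mouse. Relative to *Ptprc*, 6 of the 7 genes were higher in PBS than in UNT, from 0.69 (*Ciita*) to 1.96 (*Cd74*), each with an adjusted p of 9.33e-05 in two-sided permutation tests adjusted over 14. *H2-DMb1* was lower by 0.36 (adjusted permutation p = 0.00661). *Ptprc* itself rose least of the 5 pan-leukocyte markers (log2 fold change 2.01, beside a median of 3.33). This reference thus puts the class II genes higher than the mean of those markers does. The direction depended on the reference. Against the mean of the 5 pan-leukocyte markers, *Cd74* was higher by 0.90, the I-A and I-E chains by 0.30 to 0.42, and *Ciita* (-0.37), *H2-DMa* (-0.29) and *H2-DMb1* (-1.42) were lower. Against the mean of the macrophage markers no gene was higher, *Cd74* was at 0.11 (adjusted permutation p = 0.434), and the other 6 were lower, from -0.36 (*H2-Eb1*) to -2.21 (*H2-DMb1*). Against the dendritic cell markers 6 genes were higher, up to 2.46 (*Cd74*), and *H2-DMb1* was at 0.14 (adjusted permutation p = 0.104). Of these 9 markers 4 had UNT medians under 1 CPM, where a pseudocount of 1 shrinks differences. With a pseudocount of 0.1 the same 6 genes were higher by 0.80 (*H2-DMa*) to 1.84 (*Cd74*), and *H2-DMb1* was lower (-0.43, adjusted permutation p = 0.00068). With that pseudocount *Cd74* alone stayed higher against the pan-leukocyte markers (0.72), and the I-A and I-E chains no longer passed (0.14 to 0.27, adjusted permutation p = 0.0786 to 0.259), nor did *Ciita* (-0.17, adjusted permutation p = 0.167).

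**Figure D3:**
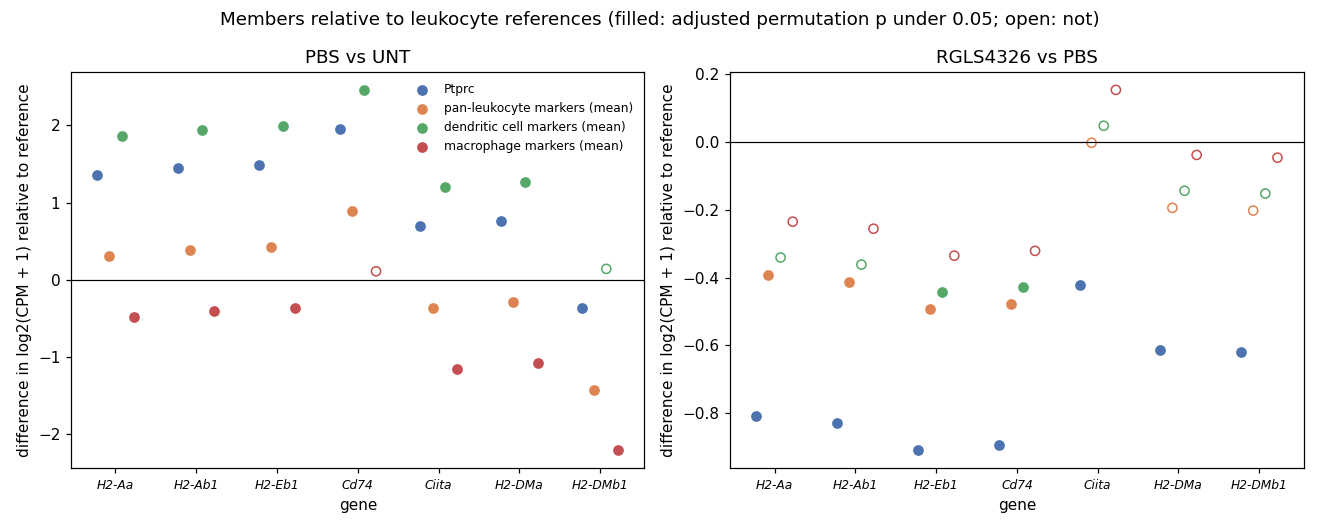
Difference between groups in log2(CPM + 1) of each gene after subtraction of a leukocyte reference in each mouse, for PBS vs UNT and RGLS4326 vs PBS, with filled points where the adjusted permutation p is under 0.05. For PBS vs UNT the values of *H2-Aa* run from -0.49 against macrophage markers to 1.87 against dendritic cell markers.

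With RGLS4326, 5 of the 7 genes were lower than with PBS, by 1.31-fold (*H2-DMb1*) to 1.61-fold (*H2-Eb1*), where 18.5% of all genes tested were called lower and 15.3% higher. These were *H2-Aa*, *H2-Ab1*, *H2-Eb1*, *Cd74* and *H2-DMb1*, while *Ciita* and *H2-DMa* did not pass. With the library block as a factor *H2-DMa* passed too (edgeR, adjusted p = 0.0427). With the replicate number as a factor *H2-Aa* and *H2-Ab1* did not pass (edgeR, adjusted p = 0.0531 and 0.0505). The median log2 fold change of the 7 was -0.57, beside 0.0022 over all genes. RGLS4326 and PBS mice overlapped for every one of the 7, and in the whole table the groups were fully apart, with RGLS4326 lower, for 3 genes.

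*Cd74* ranged from 352 to 1347 CPM with RGLS4326 (median 708), against 680 to 2467 CPM with PBS, and 9 of 11 treated mice lay below the PBS median. Its log2 fold change was -0.65 (SE 0.21, adjusted p = 0.0175). *H2-Eb1* ranged from 115 to 433 CPM (median 237; log2 fold change -0.69, SE 0.22, adjusted p = 0.0181). The I-A chains moved by about as much. *H2-Ab1* ranged from 119 to 437 CPM (median 235; log2 fold change -0.59, SE 0.21, adjusted p = 0.0304) and *H2-Aa* from 144 to 544 CPM (median 299; -0.57, SE 0.21, adjusted p = 0.0321).

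For the H2-DM chains the values of both were close. *H2-DMb1* ranged from 20.1 to 42.7 CPM (median 30.0), 7 of 11 treated mice lay below the lowest PBS mouse, and the log2 fold change was -0.39 (SE 0.11, adjusted p = 0.0129). *H2-DMa* ranged from 19.8 to 51.8 CPM (median 34; log2 fold change -0.37, SE 0.15, adjusted p = 0.0533). *Ciita* ranged from 11.1 to 24.6 CPM (median 17.9; log2 fold change -0.15, SE 0.13, adjusted p = 0.371), with 7 of 11 treated mice below the PBS median. The lowest treated mouse was RGLS4326 6 for the other 6 genes and RGLS4326 1 for *Ciita*.

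Whether the chains moved by more than *Ciita* was tested on their difference within each mouse, a comparison added after the levels had been seen. Relative to *Ciita*, *H2-Eb1* (-0.49, adjusted p = 0.0304), *Cd74* (-0.47, adjusted p = 0.0304) and *H2-Ab1* (-0.41, adjusted p = 0.0343) were lower with RGLS4326 than with PBS in two-sided permutation tests adjusted over 12. *H2-Aa* (-0.39, adjusted permutation p = 0.0601), *H2-DMa* (-0.19, adjusted permutation p = 0.204) and *H2-DMb1* (-0.20, adjusted permutation p = 0.181) did not pass. For PBS vs UNT, *Cd74* (1.26), *H2-Eb1* (0.79), *H2-Ab1* (0.75) and *H2-Aa* (0.67) were higher relative to *Ciita*, *H2-DMb1* was lower (-1.06), and *H2-DMa* was at 0.073 (adjusted permutation p = 0.528). With a pseudocount of 0.1, which weighs the low *Ciita* counts of UNT mice more, *Cd74* was higher relative to *Ciita* by 0.89, *H2-Eb1* by 0.44 and *H2-Ab1* by 0.40, and *H2-Aa* no longer passed (0.31, adjusted permutation p = 0.0967).

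Which members were called for RGLS4326 vs PBS depended on the mice fitted, and each block held only 3 or 4 mice of a group. Within library block 1 the log2 fold changes of the 7 genes were -0.25 to -0.075 and 0 were called (0 at an unadjusted p under 0.05), where 54 genes were called in all. Block 2 gave -1.0 to -0.25, with 6 called, all but *Ciita*, where 4065 genes were called in all, and block 3 gave -0.93 to -0.062, where no gene of the table was called (edgeR; 2826 genes, 2 of the 7 among them, at an unadjusted p under 0.05). In block 2, *Cd74* was at 352 to 698 CPM in the 3 treated mice and 901 to 1122 CPM in the 4 PBS mice, with no overlap, and in block 1 at 708 to 1159 CPM in 4 treated and 814 to 1287 CPM in 3 PBS mice. The 3 treated libraries of block 2 also stood apart in the share of reads outside genes, with 11.3% to 12.0% against 5.49% to 9.0% in its 4 PBS libraries. The test of the difference between blocks called 0 of 15644 genes in edgeR (1124 at an unadjusted p under 0.05), and its adjusted p for the 7 genes was 0.743 to 0.967.

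The share of reads outside genes, 5.18% to 9.0% in PBS and 4.94% to 12.0% in RGLS4326 libraries, moved with the treatment contrast, most of all in block 2. In UNT libraries it was 9.84% to 11.3%, above every PBS library. This share thus cannot be told apart from the state of the kidney, and a fit with it may also take out a treatment difference. With it as a covariate 0 of the 7 genes (0 at an unadjusted p under 0.05) and 89 genes in all were called, and the log2 fold changes were -0.38 to -0.13 (edgeR, adjusted p = 0.303 to 0.645). Without mouse PBS 9, which had the highest level of all but *Ciita* among PBS mice, only *H2-DMb1* was called, while the log2 fold changes of the 4 genes that lost the call were -0.51 (*H2-Eb1*) to -0.42 (*H2-Aa*), with adjusted p = 0.0515 (*Cd74*) to 0.0952 (*H2-Aa*) in edgeR. Leaving out PBS 11, RGLS4326 5 or RGLS4326 6 left 3 called, without *H2-Aa* and *H2-Ab1*, and leaving out RGLS4326 7 or RGLS4326 9 left 4, without *H2-Aa*. *H2-DMa* passed in 10 of the 34 fits that left out a mouse, those without RGLS4326 3, 4, 8 or 10, PBS 1, 5, 7 or 8, or UNT 9 or 10.

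**Figure D4:**
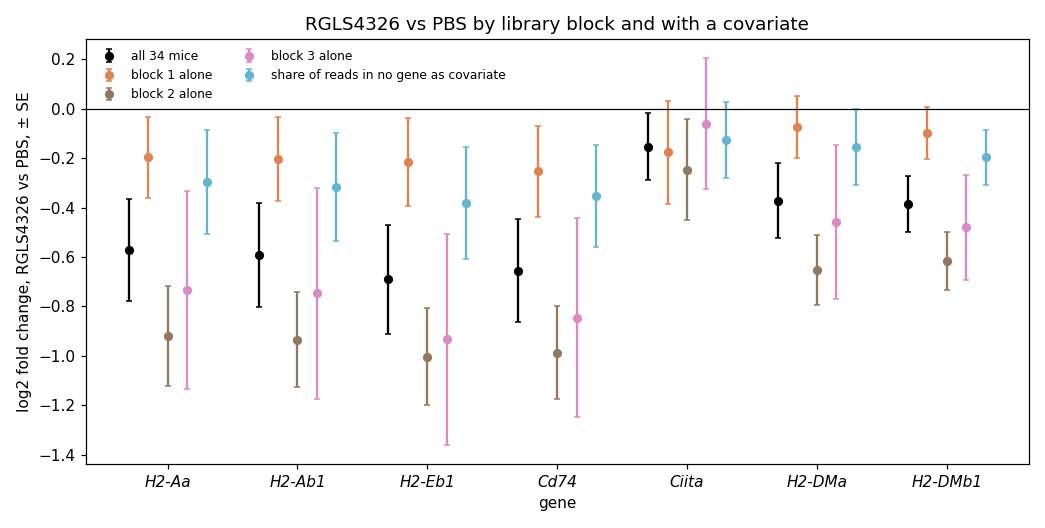
Log2 fold change (edgeR, ± SE) of each gene for RGLS4326 vs PBS in all 34 mice, in each library block alone, and with the share of reads outside genes as a covariate. All points lie below 0; those of block 2 reach -1.0 and those of block 1 stay between -0.25 and -0.075.

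Leukocyte markers moved in part with the treatment. Of 10 macrophage markers 5 were lower with RGLS4326 and 5 did not pass (median log2 fold change -0.38), of 6 T cell markers 5 were lower (median -0.74), and of 9 dendritic cell markers 3 were lower (*Clec10a*, -1.06, *Ccr7*, -0.90, and *Itgax*, -0.44), *Zbtb46* was higher (0.34) and 5 did not pass (median -0.21). *Ptprc* was at 27.6 to 57.7 CPM with PBS and 36.3 to 75.3 CPM with RGLS4326 (log2 fold change 0.25, adjusted p = 0.0856 in edgeR), and of the 5 pan-leukocyte markers *Laptm5* alone was lower (-0.50). Of 4 neutrophil markers 0 passed (edgeR; 2 at an unadjusted p under 0.05 and 1 by DESeq2), and of 5 tested B cell markers *Cd79b* was lower (-0.60). Kidney epithelial markers moved the other way, with 6 of 8 higher (median 0.46) and *Aqp2*, of the collecting duct, lower (-0.78).

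Relative to *Ptprc*, all 7 genes were lower with RGLS4326 than with PBS, from -0.42 (*Ciita*, adjusted permutation p = 0.022) to -0.91 (*H2-Eb1*, adjusted permutation p = 0.00350), with 9 (*Ciita*) or 10 (the other genes) of 11 treated mice below the PBS median. *Ptprc* itself was not lower with treatment, so this reference widens the difference. Against the mean of the pan-leukocyte markers 4 genes were lower (*H2-Aa*, *H2-Ab1*, *H2-Eb1* and *Cd74*, -0.49 to -0.39) and *Ciita* was at -0.0036 (adjusted permutation p = 0.978). Against the mean of the macrophage markers none passed (-0.34 to 0.15), and against the dendritic cell markers *H2-Eb1* (-0.44) and *Cd74* (-0.43) did.

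In the other class II genes, 0 of 4 tested passed for RGLS4326 vs PBS (edgeR; 1 at an unadjusted p under 0.05 and 1 by DESeq2; median log2 fold change -0.15), with *H2-DMb2* at 5.23 to 17.9 CPM (-0.22, adjusted p = 0.287). In the antigen processing list *Ctsd* (-0.60), *Ifi30* (-0.49) and *Ctsb* (-0.35) were lower, *Sppl2a*, which cleaves the last membrane fragment of the invariant chain, was higher (0.21) and 5 did not pass. *Ctss* was at 110 to 276 CPM, against 124 to 411 CPM with PBS (-0.40, adjusted p = 0.0527). In the interferon gamma axis *Socs1* (-0.41), *Irf1* (-0.27) and *Ifngr2* (-0.20) were lower and 5 did not pass. Of the 6 genes of the costimulation list 0 passed in edgeR (0 at an unadjusted p under 0.05 and 0 by DESeq2, median -0.15). Of the X and Y box factors *Creb1* alone was higher (0.30).

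**Figure D5:**
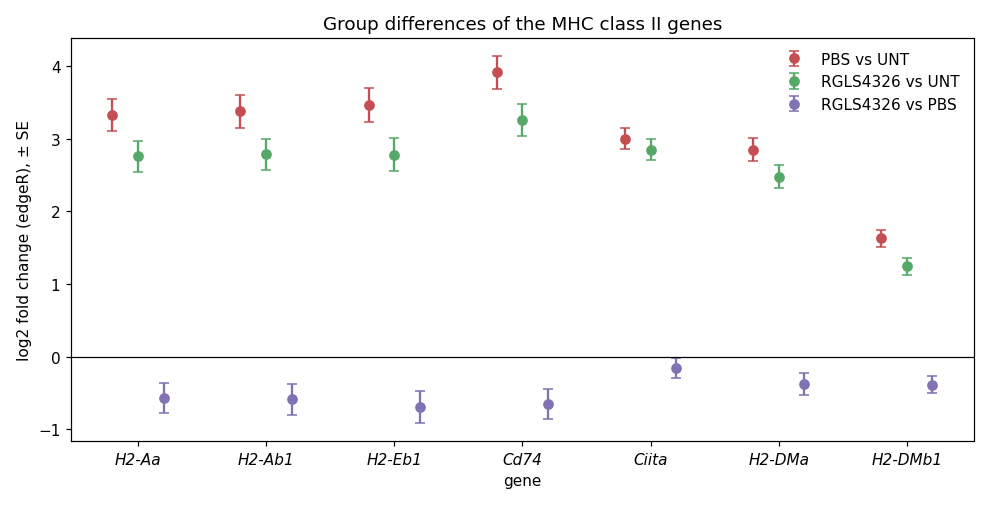
Log2 fold change (edgeR, ± SE) of the 7 genes for PBS vs UNT (n = 11 and 12), RGLS4326 vs UNT (n = 11 and 12) and RGLS4326 vs PBS (n = 11 each). The values against UNT lie between 1.24 and 3.92, and those of RGLS4326 vs PBS between -0.69 and -0.15.

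Treated kidneys remained far above UNT kidneys. All 7 genes were higher in RGLS4326 than in UNT mice, with log2 fold changes of 1.24 (*H2-DMb1*, SE 0.11, adjusted p = 4.14e-12) to 3.26 (*Cd74*, SE 0.22, adjusted p = 8.18e-16), and every treated mouse lay above every UNT mouse. Of all genes tested 40.8% were called higher in this contrast, and for 20.7% all treated mice lay above all UNT mice. *Ciita* was 7.21-fold higher than in UNT, *H2-Aa*, *H2-Ab1* and *H2-Eb1* 6.78-fold to 6.91-fold, and *Cd74* 9.59-fold. RGLS4326 vs UNT and RGLS4326 vs PBS share the treated mice, and both contrasts against UNT share the UNT mice.

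Within each group the chains and *Cd74* were nearly collinear between mice. Over the 6 pairs of *H2-Aa*, *H2-Ab1*, *H2-Eb1* and *Cd74*, Pearson's r of log2(CPM + 1) was 0.953 to 0.988 in UNT, 0.985 to 0.995 in PBS and 0.990 to 0.997 in RGLS4326 mice, all levels coming from the same libraries. *Ciita* followed them less closely. Its r with the other 6 genes was 0.64 to 0.84 in UNT (n = 12), 0.39 to 0.58 in PBS (n = 11) and 0.52 to 0.69 in RGLS4326 mice (n = 11), positive in all 18 relations.

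Over these 18 relations, 6 passed in UNT by a permutation test of Pearson's r (adjusted p = 0.0211 to 0.0447), 0 in PBS (0.0846 to 0.241) and 4 in RGLS4326 mice, the 4 relations with *H2-Aa*, *H2-Ab1*, *H2-Eb1* and *Cd74*. Spearman's rho was 0.43 to 0.77 in UNT, 0.62 to 0.77 in PBS and 0.36 to 0.63 in RGLS4326 mice, and 3, 5 and 0 relations passed its permutation test. The choice of coefficient thus changed which group passed. With a pseudocount of 0.1 in place of 1, r hardly moved, but 1 relation passed by Pearson's r in UNT, that with *H2-DMa*, and 0 in PBS and RGLS4326 mice, the adjusted permutation p of the other 9 that had passed being 0.0525. Without the 2 mice farthest from the *Ciita* median, r was 0.20 to 0.70 in UNT, 0.30 to 0.52 in PBS and 0.44 to 0.71 in RGLS4326 mice, the lowest of these, *H2-DMb1* in UNT, resting on those 2 mice. With library block means subtracted, r was 0.69 to 0.83 in UNT, 0.44 to 0.65 in PBS and 0.54 to 0.82 in RGLS4326 mice.

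The genes outside the 7 whose levels followed them most closely from mouse to mouse were ranked by the median Pearson's r with the 7 after group means were subtracted, over 34 mice, as a description with no test. The first was *H2-D1*, a class I heavy chain (median r 0.89), followed by *Psmb8*, an immunoproteasome subunit (0.88), *H2-K1*, another class I heavy chain (0.88), *Cd52* (0.87), *Selplg* (0.87), *Coro1a* (0.87), *Psmb9*, a second immunoproteasome subunit (0.87), *Slamf8* (0.86), *Itgax*, the dendritic cell integrin CD11c (0.85), and *Ptprcap*, which associates with CD45 (0.84). All 10 were higher in PBS than in UNT (log2 fold change 1.49 for *H2-K1* to 3.73 for *Itgax*). With *Ciita* alone these 10 genes had r of 0.46 to 0.63, beside 0.85 to 0.92 with *Cd74*. Levels of *H2-D1* were 125, 432 and 292 CPM as medians in UNT, PBS and RGLS4326 kidneys.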

How the data were processed

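Kidney mRNA of 34 mice was measured, 1 library per mouse. The authors prepared stranded mRNA libraries, trimmed reads with Trim Galore, aligned them with STAR to the GRCm38 (mm10) build and, with HTSeq 0.6.1, counted per gene the reads that mapped uniquely, and the deposited values are raw counts per gene symbol, not normalized. The gene annotation and the strand setting are not given in the sources used here. Groups followed the labels.

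All 34 libraries were fitted together with the quasi-likelihood test of edgeR 4.0.16 (R 4.3.3), with TMM scaling, filterByExpr and Benjamini-Hochberg adjustment over 15644 genes. A gene was called when its adjusted p was under 0.05. Levels are CPM after TMM scaling. Depth was 17603122 to 54981992 reads in genes, and *Ciita*, the member with the lowest count, had at least 50 per library, so the spread between mice sets the precision. On simulated counts, 95 of 100 at a log2 fold change of 1 and 76 of 100 at 0.5 were recovered, with 10 false calls among 181. Nothing states littermates or cages, so p-values measure the spread between these mice.

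Ratios and correlations used log2(CPM + 1) and two-sided permutation tests with 100000 resamples (Python 3.11.15, scipy 1.17.1), for which 2e-05 is the smallest p between groups and 1e-05 for a correlation. DESeq2 1.42.0, other scaling, filters, blocks, covariates and leaving out each mouse were tried.

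The members and the gene lists were chosen with earlier results of these data known. The text names the 7 members, list genes that were called or define a list, the 10 genes most correlated with the members, and *Pkd2* and *Pdk2*. *Emr1* stands in the tables for *Adgre1* and *H2-Ea-ps* for *H2-Ea*, and *Ighm*, *Trac* and *Ly6g* were not analysed here. The result of 1 gene of the lists is not reported here. Sequences are from RefSeq (GRCm38.p6), and no promoter of *H2-Ab1*, *Ciita* or *Cd74* was used here. Figures were drawn with matplotlib 3.10.9.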

Additional observations from a re-analysis of the deposited data

How the results depend on the processing

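The 7 members were called higher in PBS vs UNT and in RGLS4326 vs UNT under every alternative run, including each library block alone and each of the 34 fits without 1 mouse, with log2 fold changes of 1.51 to 4.06 and of 1.19 to 3.41 over those 34 fits. Over all alternatives they were 1.22 (*H2-DMb1*, with the share of reads outside genes as a covariate, where *Cd74* was at 3.23) to 4.11 (block 3 alone) in PBS vs UNT, and 0.83 (block 2 alone) to 3.64 (block 1 alone) in RGLS4326 vs UNT. The number of genes called in those contrasts moved by over 1.5 times only with the share of not uniquely aligned reads as a covariate (7340 and 7316), a share of 22.8% to 25.7% in UNT and 14.8% to 19.4% in PBS libraries that cannot be told apart from the groups.

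For RGLS4326 vs PBS, 5 members and 5282 genes were called. Library block 1 alone called 0 members and 54 genes, block 2 alone 6 members and 4065 genes, block 3 alone 0 members and 0 genes, and the share of reads outside genes as a covariate 0 members and 89 genes, where the cause was not tested. Without 1 mouse the members called ranged from 1 to 6 and the genes called from 4023 to 6209, and 16 of the 34 fits changed the call of a member, 6 by losing at least 1. With a replicate block 3 members were called, with adjusted p = 0.0531 for *H2-Aa* and 0.0505 for *H2-Ab1* (edgeR), and 5098 genes. The mice share only a number: of 11 same-numbered pairs between groups, 2 to 5 had a correlation of deviations over 0.1, and 1 or 2 mice correlated best with their own number. The block changed no call of a member in the other contrasts. DESeq2, the library block as a factor, the share of not uniquely aligned reads and the *Ddx3y* sign also called *H2-DMa*, and the fit of only the 2 groups did not call *H2-Aa*.

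Relative to *Ptprc*, 6 members were higher in PBS vs UNT and 7 lower in RGLS4326 vs PBS. With macrophage markers as the reference the counts were 0 and 0, and the direction turned for *H2-Aa* (-0.49), *H2-Ab1* (-0.41), *H2-Eb1* (-0.36), *Ciita* (-1.15) and *H2-DMa* (-1.08) in PBS vs UNT and for *Ciita* (0.15) in RGLS4326 vs PBS. Pan-leukocyte markers turned *Ciita* (-0.37) and *H2-DMa* (-0.29) in PBS vs UNT and left 4 members lower in RGLS4326 vs PBS. Dendritic cell markers, an alternative chosen after seeing the data, put *H2-DMb1* at 0.14, which turned to -0.43 with a pseudocount of 0.1, and, for RGLS4326 vs PBS, turned *Ciita* (0.047, and 0.083 with 0.1) and left 2 members lower with either pseudocount. The other marker references were also rerun with 0.1 after seeing the data. Macrophage markers then gave counts of 0 and 0 again and turned *Cd74* (-0.12) beside *H2-Aa* (-0.71), *H2-Ab1* (-0.62), *H2-Eb1* (-0.58), *Ciita* (-1.01) and *H2-DMa* (-1.15), and *Ciita* (0.15) in RGLS4326 vs PBS. Pan-leukocyte markers then left 1 member higher in PBS vs UNT and 4 lower in RGLS4326 vs PBS, with *Ciita* at -0.17, which did not pass, and *H2-DMa* at -0.31 in PBS vs UNT. Relative to *Ciita*, a pseudocount of 0.1 turned *H2-DMa* in PBS vs UNT (-0.14). By Pearson's r, 10 relations with *Ciita* passed, and 1 with a pseudocount of 0.1, where r hardly moved (0.63 to 0.83 in UNT, 0.52 to 0.69 in RGLS4326) and the adjusted p of the others that had passed was 0.0525. With library block means subtracted 6, 2 and 5 relations passed in UNT, PBS and RGLS4326 by Pearson's r, and 0, 5 and 3 by Spearman's rho.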
